A study of Pinus pinaster with 36 samples.

Results

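The transcripts described here were the abundant ones of maritime pine (Pinus pinaster) whose level was similar in needles, stem and roots. Each count was divided by its library's total and scaled to CPM, which are counts per 1000000 counts of the library, and the CPM were averaged over the 12 libraries of each organ. A transcript belonged to the set when its highest organ mean was at least 500 CPM and was less than 2 times its lowest. The rule found 39 of 224081 transcript identifiers. A further 186 identifiers also reached 500 CPM in an organ but differed more between organs. Members were thus chosen by their organ means in these same libraries, and levels and organ differences are given as a description only.

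The 36 libraries came from 2-month-old seedlings of the Segura-Alcaraz provenance, grown for 1 month on a weekly 40 mL of 8 mM ammonium chloride or 8 mM potassium nitrate, in air with 720 or 400 ppm CO2. The 4 groups were ammonium at 720 ppm, ammonium at 400 ppm, nitrate at 720 ppm and nitrate at 400 ppm, each with 3 libraries per organ, which gives 6 libraries for each nitrogen form or CO2 level in an organ. Each library held the RNA of an organ from a pool of 12 seedlings. The nitrogen forms also differed in the accompanying salt ion, chloride or potassium, so the ion and the nitrogen form cannot be told apart, and no group went without nitrogen.

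Transcripts that are plentiful in every organ of a plant usually encode machinery that all living cells need, such as ribosomal proteins, translation factors, ubiquitin, tubulin, actin and histones. Genes of that kind are often chosen as references in quantitative PCR, which assumes that treatment leaves them steady. Ammonium and nitrate are the main inorganic nitrogen forms that roots take up; nitrate must be reduced before it enters amino acids, and ammonium enters directly. The files paired no identifier with a gene name, so no function is given for any transcript below, and the organ labels were not checked against marker genes. Counts were not divided by transcript length, so CPM compare 1 transcript between samples and do not rank molecules between transcripts.

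Library totals lay between 73414247 and 134836160 counts for needles, between 76082457 and 111368507 for stem, and between 76221102 and 120587917 for roots. Every member had between 13923 and 267057 counts in each library. In 7 libraries, 4 of needles and 3 of stem, 68.3 to 75.4% of the counts above 20 were even numbers and 48.2 to 58.5% of all identifiers were at 0. In the other 29 libraries 52.5 to 64.4% were even and 11.1 to 43.4% of identifiers were at 0. The 7 are called many-even-count libraries below.

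The 39 members took up 1.89 ± 0.0642% of the counts in needles, 2.45 ± 0.0790% in stem and 2.51 ± 0.0828% in roots (SD, n = 12 each). With ammonium the members' share in roots was 2.54 ± 0.0980%, against 2.49 ± 0.0632% with nitrate, and in needles 1.91 ± 0.0591% with ammonium, against 1.88 ± 0.0695% with nitrate (SD, n = 6 each), differences within the spread. The 186 uneven abundant identifiers took up 20.2 ± 1.75% in needles, 9.33 ± 0.882% in stem and 5.52 ± 0.618% in roots. The median member stood at 447 CPM in needles, 542 CPM in stem and 586 CPM in roots. In needles 15 members reached 500 CPM, in stem 27 and in roots 34, and 12 did so in all 3 organs. By level, members ranked between 42 and 333 among all identifiers in needles, between 7 and 212 in stem and between 9 and 90 in roots.

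A pair of members stood above the rest. PpCO2_53134 averaged 1091 ± 141 CPM in needles, 2030 ± 211 CPM in stem and 1501 ± 322 CPM in roots (SD, n = 12 each). PpCO2_92144 averaged 1329 ± 137 CPM in needles, 1575 ± 91.7 CPM in stem and 1667 ± 141 CPM in roots. The third member by level, PpCO2_14704, averaged 603 ± 59.7 CPM in needles, 730 ± 56.6 CPM in stem and 815 ± 66.4 CPM in roots. The mean of PpCO2_92144 over the 36 libraries was 2.13 times that of PpCO2_14704. The lowest member, PpCO2_71618, had a mean of 373 CPM over the 36 libraries, so the other members lay in a narrow band under the pair.

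Below PpCO2_14704, the next 9 by level were PpCO2_55849, PpCO2_86541, PpCO2_86543, PpCO2_20527, PpCO2_176539, PpCO2_164228, PpCO2_164227, PpCO2_114159 and PpCO2_28234, whose means over 36 libraries lay between 566 and 713 CPM. PpCO2_55849 had 526 ± 63.4 CPM in needles, 809 ± 145 CPM in stem and 803 ± 143 CPM in roots. PpCO2_114159 had 410 ± 52.3 CPM in needles, 690 ± 40.8 CPM in stem and 750 ± 75.5 CPM in roots. PpCO2_176539 was flatter, with 577 ± 47.9 CPM in needles, 668 ± 53.3 CPM in stem and 666 ± 47.3 CPM in roots.

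**Figure D1:**
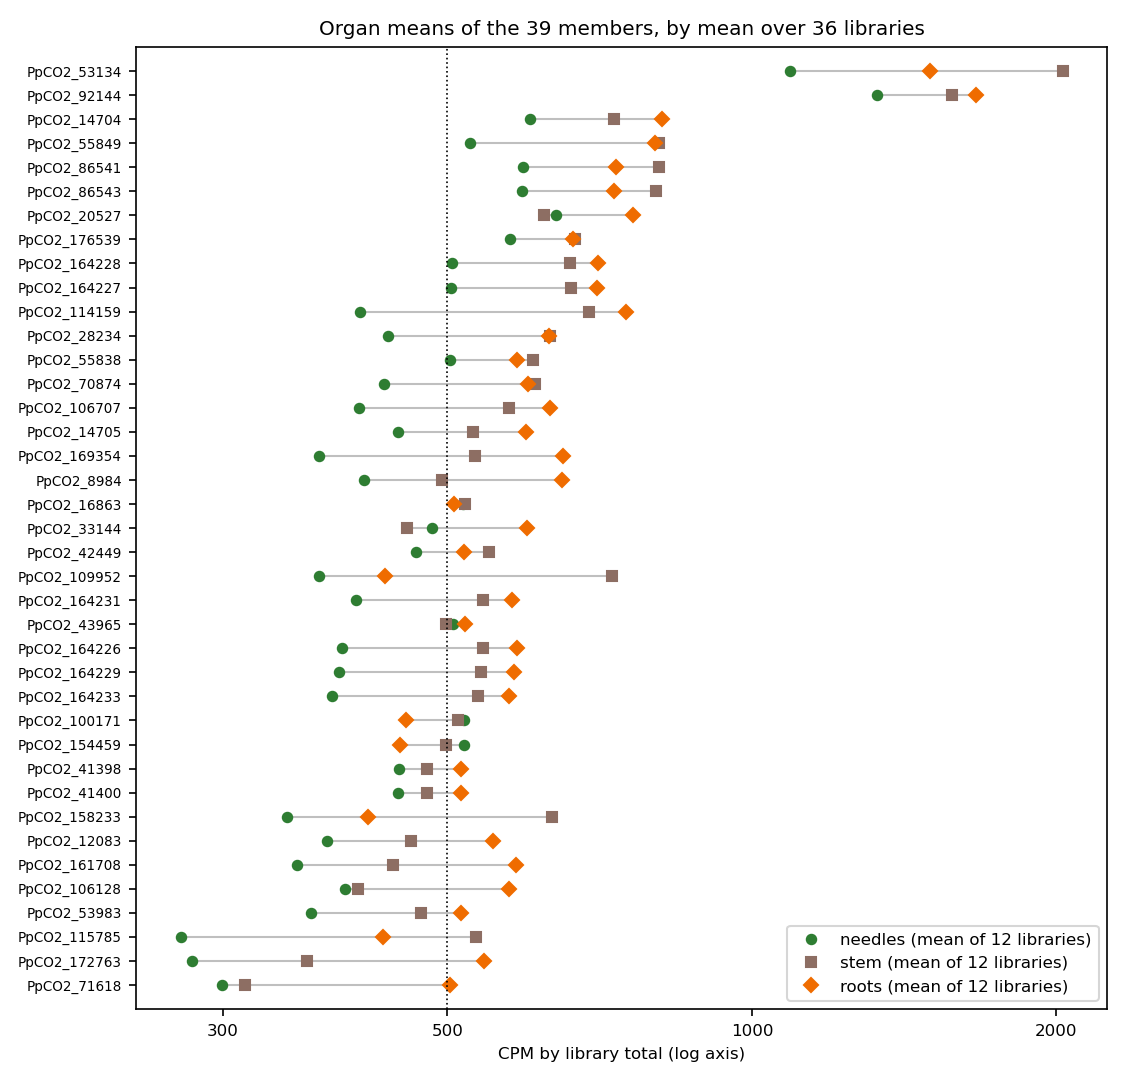
Organ means of the 39 members in CPM by library total, on a log axis; each symbol is the mean of 12 libraries of needles, stem or roots, each grey line joins a member's lowest and highest organ, and the dotted line marks 500 CPM. PpCO2_53134 and PpCO2_92144 stand apart above 1000 CPM, and needles are the lowest organ in 33 members.

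The ratio of the highest to the lowest organ mean was 1.02 to 1.96, with a median of 1.41, and 27 members were under 1.5. PpCO2_16863 was the most even, with 518 ± 65.3 CPM in needles, 520 ± 83.8 CPM in stem and 508 ± 40.9 CPM in roots and a ratio of 1.02. PpCO2_43965 followed, with 506 ± 37.3 CPM in needles, 499 ± 46.9 CPM in stem and 520 ± 53.6 CPM in roots and a ratio of 1.04. PpCO2_100171 had a ratio of 1.14 and PpCO2_41398 of 1.15. At the other end were PpCO2_53134 at 1.86, PpCO2_109952 at 1.95, PpCO2_172763 at 1.95 and PpCO2_115785 at 1.96. The ratio hid different shapes, since PpCO2_109952 stood at 374 ± 75.9 CPM in needles, 727 ± 80.3 CPM in stem and 434 ± 43.4 CPM in roots, while PpCO2_172763 stood at 279 ± 18.8 CPM in needles, 364 ± 30.6 CPM in stem and 544 ± 38.2 CPM in roots.

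Some identifiers lay close to the limits of the rule. Just inside 500 CPM were PpCO2_71618 with a highest organ mean of 503 CPM and PpCO2_41400 with 515 CPM, and just under it were PpCO2_142990 with 490 CPM and PpCO2_142989 with 489 CPM. Just outside the ratio limit were PpCO2_47402 at 2.03 and PpCO2_53140 at 2.09. With CPM scaled by trimmed means of M values (TMM), which sets library scales by the transcripts that change little, 48 identifiers met the rule, and 35 of them were among the 39. Without the many-even-count libraries 39 met it, and 38 of them were among the 39.

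By library totals, needles were the lowest organ for 33 members, roots the highest for 24 and stem the highest for 13. The median member was 0.47 log2 units lower in needles than in roots by library totals, with 36 members negative and 3 positive, but 0.017 log2 units higher in needles by TMM, with 17 negative and 22 positive. Over 66198 transcripts of at least 1 CPM the same median was -0.58 by library totals and -0.089 by TMM. Against stem, the median member in needles was -0.36 by library totals and 0.17 by TMM. Which organ was lowest thus depended on the scaling. In bulk RNA, fewer cells of a type and less RNA per cell cannot be told apart.

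Spread between the 3 replicates of a group was measured as a coefficient of variation (CV) and taken as its median over the 12 groups. It is described without a test. It was 6.98% for the median member and 13.5% for the median of the 186 uneven identifiers. It was under 10% in 28 of 39 members and in 52 of 186 uneven identifiers. By organ, the median over members was 6.94% in needles, 6.68% in stem and 6.48% in roots, and over the uneven identifiers 9.14% in needles, 14.0% in stem and 18.8% in roots.

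The 3 steadiest members were PpCO2_164229 with a CV of 2.57%, PpCO2_164233 with 2.66% and PpCO2_164226 with 2.69%. PpCO2_164229 ran from 364 to 618 CPM over all 36 libraries and averaged 391 ± 16.5 CPM in needles, 539 ± 11.03 CPM in stem and 581 ± 18.6 CPM in roots by library totals. The 3 most variable were PpCO2_158233 at 16.8%, PpCO2_33144 at 47.2% and PpCO2_20527 at 52.0%. The organ ratio was 1.83 for PpCO2_158233, 1.31 for PpCO2_33144 and 1.22 for PpCO2_20527.

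**Figure D2:**
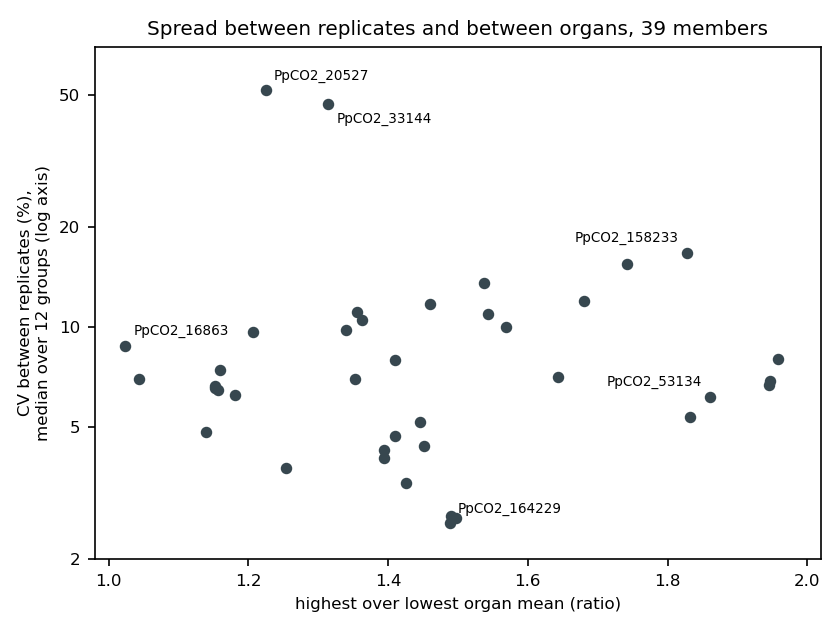
CV between replicates in percent, as the median over 12 groups on a log axis, against the ratio of the highest to the lowest organ mean, one point for each of the 39 members. PpCO2_20527 and PpCO2_33144 lie at 52.0% and 47.2% although their organ ratios are 1.22 and 1.31, and no other member is above 16.8%.

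PpCO2_20527 ran from 268 to 1659 CPM and PpCO2_33144 from 199 to 1176 CPM over the 36 libraries. The 5 highest libraries of PpCO2_20527 were roots ammonium 720 ppm replicate 1 at 1659 CPM, stem nitrate 720 ppm replicate 1 at 1600 CPM, needles nitrate 400 ppm replicate 1 at 1414 CPM, roots ammonium 400 ppm replicate 2 at 1400 CPM and needles ammonium 720 ppm replicate 1 at 1319 CPM. PpCO2_33144 had 1176, 1060, 1010, 990 and 988 CPM in those libraries. High libraries therefore occurred in every organ, nitrogen form and CO2 level. Of the 5, those of stem nitrate and needles nitrate were many-even-count libraries, and their part in the spread was not tested. The lowest library of PpCO2_20527 was needles ammonium 400 ppm replicate 3 at 268 CPM.

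PpCO2_20527 had a median of 419 CPM in the 4 many-even-count needle libraries and 502 CPM in the other 8, and 371 CPM in the 3 of stem and 459 CPM in the other 9. In roots, which had none, it ran from 314 to 1659 CPM. The highest root library, ammonium 720 ppm replicate 1, had 64.4% even counts, the largest share outside the many-even-count libraries. The next highest in roots, ammonium 400 ppm replicate 2 at 1400 CPM, had 56.0%. Across the 36 libraries, 10 of 3327 transcripts of at least 50 CPM followed PpCO2_20527 with a Pearson r of log2 CPM above 0.75, and the next transcript was at 0.46. They were PpCO2_104660 (r = 0.99), PpCO2_104661 (0.99), PpCO2_33144 (0.99), PpCO2_20524 (0.98), PpCO2_20523 (0.98), PpCO2_20525 (0.97), PpCO2_114617 (0.93), PpCO2_137846 (0.86), PpCO2_144044 (0.80) and PpCO2_144043 (0.79). The correlations are descriptions over 36 libraries that share organs and depths. Apart from PpCO2_33144, these transcripts had organ means of 54.1 to 289 CPM and organ ratios of 1.18 to 1.36.

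**Figure D3:**
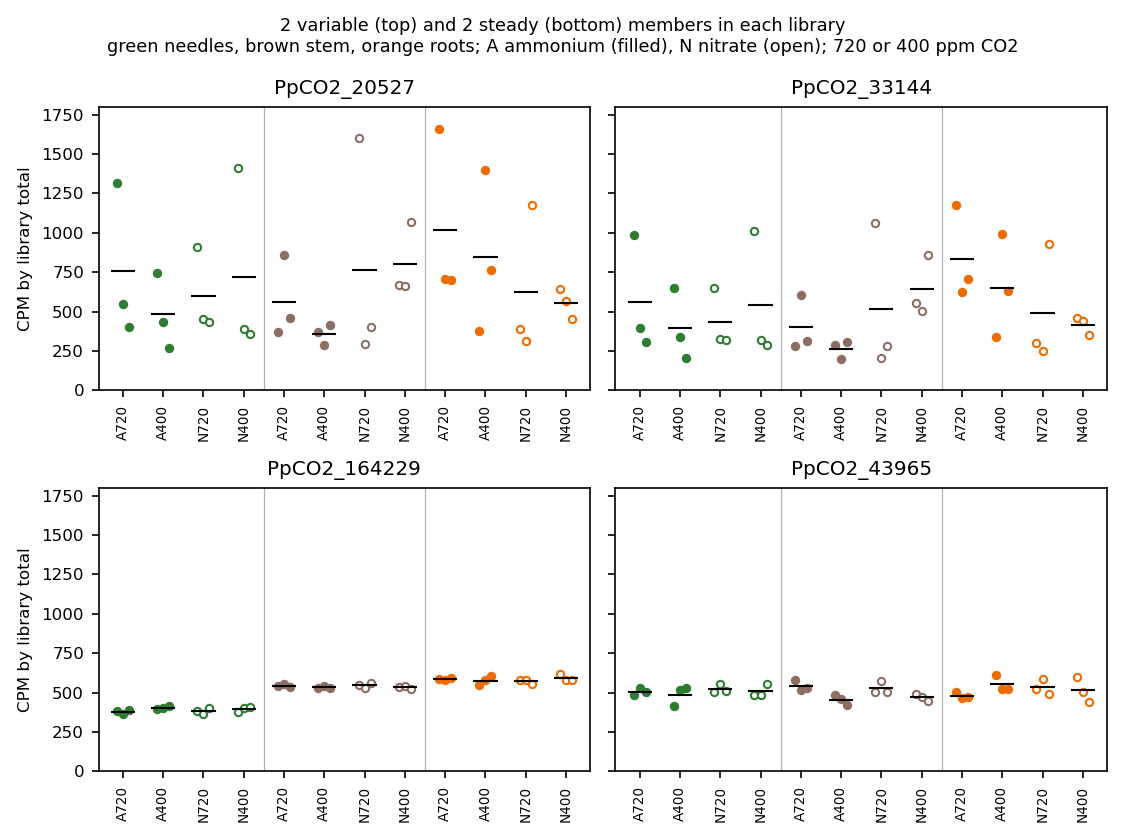
CPM by library total of PpCO2_20527 and PpCO2_33144 (top) and of PpCO2_164229 and PpCO2_43965 (bottom) in each library, with ammonium (A, filled) left of nitrate (N, open), 720 left of 400 ppm CO2, and a bar at each group mean; green is needles, brown stem and orange roots. The top pair peaks in the same libraries, up to 1659 and 1176 CPM, while PpCO2_164229 stays between 364 and 618 CPM.

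Many members carried neighbouring identifier numbers and had nearly the same counts. PpCO2_86541 and PpCO2_86543, PpCO2_41398 and PpCO2_41400, and PpCO2_164227 and PpCO2_164228 each differed by at most 2% in all 36 libraries. PpCO2_164226, PpCO2_164229 and PpCO2_164233 formed a similar trio, and PpCO2_164231 lay close to them. PpCO2_164230, between them in number, was just under the limit with 294 CPM in needles, 424 CPM in stem and 461 CPM in roots. PpCO2_14704 and PpCO2_14705 kept a count ratio of 1.26 to 1.55.

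Of the 741 pairs of members, 20 kept a nearly constant count ratio, whose highest value over the libraries was at most 1.2498 times its lowest, and joining those pairs left 30 sets of 1 or more members. The largest set held 7 members, the 6 with numbers between PpCO2_164226 and PpCO2_164233 and PpCO2_70874, whose number lies far away. PpCO2_70874 joined through PpCO2_164227 and PpCO2_164228 only. With the others of the set, the highest value of its count ratio was 1.29 to 1.37 times the lowest. Of 190 identifiers within 3 numbers of a member, 25.3% had a mean of at least 50 CPM, against 1.51% of all identifiers. Whether such identifiers share sequence or reads was not tested, so the 39 may stand for fewer genes, and their counts are not independent of each other.

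Treatment was compared within each organ on TMM-scaled counts with edgeR's quasi-likelihood test, adjusted over all transcripts tested in that organ, and a member was called at an adjusted p under 0.05. Fold changes below are from that fit, and the CPM beside them are by library totals. All 39 members passed the low-count filter in every organ. Over the 6 comparisons of nitrogen form and CO2 in the 3 organs, 9 members (23.1%) were called in at least 1 and 30 in none, against 14.5% called in at least 1 of the 104074 transcripts tested in all 3 organs, and 7 of the 9 were called in roots. For nitrogen form, the median absolute log2 fold change of the members was 0.041 in needles, against 0.23 for all transcripts tested there. It was 0.072 for the members in stem, against 0.27 for all transcripts, and 0.093 for the members in roots, against 0.36 for all. The members have far higher counts than most transcripts, and some have nearly the same counts as each other. These shares and medians, and the shares of members in each comparison below, are therefore set side by side only.

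**Figure D4:**
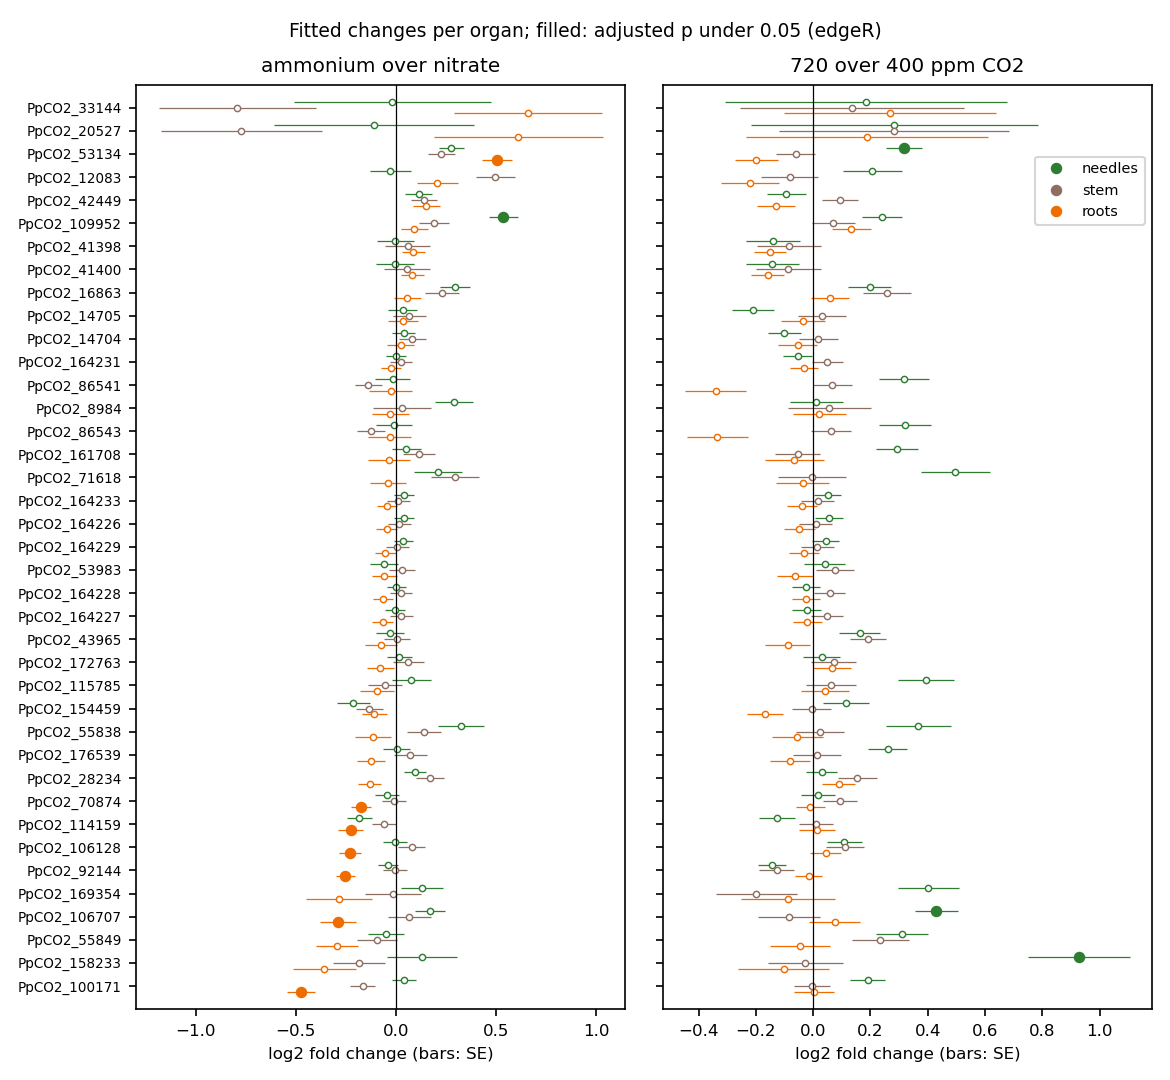
Fitted log2 fold changes with standard errors for the 39 members, ammonium over nitrate (left) and 720 over 400 ppm CO2 (right), in needles (green), stem (brown) and roots (orange), ordered by the nitrogen change in roots; filled points have an edgeR adjusted p under 0.05. In roots PpCO2_53134 is called higher and 6 members lower under ammonium, and in needles 3 members are called higher at 720 ppm.

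In roots, 7 of the 39 members, 17.9%, were called between ammonium and nitrate, against 16.4% of the 156123 transcripts tested, so the share was close to the background. With ammonium relative to nitrate, PpCO2_53134 rose, where 5.85% of all transcripts were called higher, and 6 members fell, where 10.5% were called lower. Of the 186 uneven abundant identifiers, 39 were called, 30 of them higher. PpCO2_53134 had 1685, 1744 and 1931 CPM as lowest, median and highest of 6 ammonium libraries, against 939, 1237 and 1420 CPM in 6 nitrate libraries, and the groups did not overlap. Its mean over 6 libraries was 1783 ± 104 (SD) CPM for ammonium, against 1218 ± 163 CPM for nitrate, a log2 fold change of 0.51 ± 0.075 (SE), at an adjusted p of 0.000496 by edgeR.

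PpCO2_100171 fell most. It had 361, 385 and 427 CPM as lowest, median and highest with ammonium, against 480, 531 and 548 CPM with nitrate, again without overlap. Its log2 fold change was -0.48 ± 0.070 (SE), at an adjusted p of 0.000435 by edgeR. PpCO2_92144 had 1431, 1556 and 1674 CPM with ammonium, against 1709, 1766 and 1890 CPM with nitrate, without overlap, and a log2 fold change of -0.25 (SE 0.048, adjusted p = 0.00284). These 3 were the members whose 6 libraries on ammonium did not overlap the 6 on nitrate in roots, where 8.28% of the transcripts tested did not overlap.

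The other 4 that fell had overlapping groups. PpCO2_106128 had 510, 537 and 567 CPM with ammonium, against 564, 614 and 645 CPM with nitrate (log2 fold change -0.23, SE 0.053, adjusted p = 0.00946). PpCO2_106707 had 506, 582 and 652 CPM with ammonium, against 590, 674 and 769 CPM with nitrate (-0.29, SE 0.089, adjusted p = 0.0400). PpCO2_114159 and PpCO2_70874 lie outside the naming rule and were added after their values were seen: their log2 fold changes were -0.23 (adjusted p = 0.0250) and -0.17 (adjusted p = 0.0320).

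PpCO2_53134, PpCO2_100171, PpCO2_92144 and PpCO2_106128 were called in roots without any 1 of the 12 libraries. PpCO2_106707 was lost without any 1 of 9 libraries (adjusted p 0.0504 to 0.117, log2 fold change -0.32 to -0.22) and was called without ammonium 400 ppm replicate 3, ammonium 720 ppm replicate 3 or nitrate 400 ppm replicate 1. PpCO2_70874 was lost without any 1 of 8 libraries (0.0529 to 0.0890, log2 fold change -0.18 to -0.16), and PpCO2_114159 without ammonium 720 ppm replicate 3 (0.0514). Scaled by library totals, 5 members were called, 2 higher and 3 lower in place of 1 higher and 6 lower: PpCO2_53134 and PpCO2_42449 higher, and PpCO2_100171, PpCO2_92144 and PpCO2_106128 lower. The balance between higher and lower members thus depended on the scaling: the median log2 fold change over the 39 was -0.052 by TMM, with 11 positive and 28 negative, and -0.0040 by library totals, with 19 positive and 20 negative.

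At each CO2 level alone the nitrogen response in roots rested on fewer libraries. At 720 ppm, PpCO2_53134 rose by 0.59 (SE 0.11, adjusted p = 0.00437) and PpCO2_100171 fell by 0.42 (SE 0.099, adjusted p = 0.0219), 2 members in all, where 6.18% of all transcripts were called. At 400 ppm, PpCO2_53134 rose by 0.42 (SE 0.11, adjusted p = 0.0293), PpCO2_100171 fell by 0.53 (SE 0.099, adjusted p = 0.00540) and PpCO2_92144 fell by 0.32 (SE 0.068, adjusted p = 0.0118), where 7.98% were called. The 720 ppm call of PpCO2_100171 was lost when ammonium replicate 1 (0.0814) or 2 (0.0723) or nitrate replicate 1 (0.0827) or 2 (0.0896) of that level was left out. The 400 ppm call of PpCO2_53134 was lost when ammonium replicate 2 (0.0982) or 3 (0.0936) of that level was left out, or any of the 3 nitrate replicates (0.0528 to 0.119), and that of PpCO2_92144 without ammonium 400 ppm replicate 1 (0.0709) or nitrate 400 ppm replicate 3 (0.0576).

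In needles, 1 member of 39 was called for nitrogen form, against 0.374% of the 117123 transcripts tested. With edgeR 8 members (20.5%) had an unadjusted p under 0.05, against 7% of all transcripts. PpCO2_109952 had 393, 437 and 478 CPM as lowest, median and highest of 6 ammonium libraries, against 284, 293 and 381 CPM in 6 nitrate libraries. The groups did not overlap, which held for 0.630% of the transcripts tested. Its mean over 6 libraries was 439 ± 32.1 (SD) CPM for ammonium, against 308 ± 36.9 CPM for nitrate, a log2 fold change of 0.54 ± 0.070 (SE), at an adjusted p of 0.00191 by edgeR. The call stood without any 1 of the 12 libraries, and without the 4 many-even-count needle libraries the adjusted p was 0.0504 with a log2 fold change of 0.55, as large as with them. PpCO2_53134 had a log2 fold change of 0.28 in needles (SE 0.063, adjusted p = 0.0940).

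In stem, no member was called for nitrogen form by edgeR, where 0.280% of the 137689 transcripts tested were. With edgeR 8 members (20.5%) had an unadjusted p under 0.05, against 5.2% of all transcripts. DESeq2 called 2 members and 0.969% of all transcripts, and limma-voom 2 members and 0.312%. The closest was PpCO2_12083, with 394, 562 and 659 CPM as lowest, median and highest with ammonium, against 330, 379 and 456 CPM with nitrate, and a log2 fold change of 0.50 (SE 0.099, adjusted p = 0.0556). Its call depended on the setting. It was called in 8 of 20 alternatives: with DESeq2 size factors (0.0353), by library totals (0.0302), without the low-count filter (0.00938), with DESeq2 (6.32e-05), limma-voom (0.0141) or a replicate block (0.0294), and without ammonium 720 ppm replicate 1 (0.0175) or nitrate 720 ppm replicate 3 (0.0315). Its log2 fold change lay between 0.41 and 0.56 in all 20, and without the many-even-count libraries it was 0.43 (adjusted p = 0.485). PpCO2_100171 had 450, 489 and 500 CPM with ammonium, against 523, 544 and 566 CPM with nitrate in stem. Its groups did not overlap, as for 0.731% of the transcripts tested, and its log2 fold change of -0.17 was not called (adjusted p = 0.715).

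Of the 7 members called in roots, 5 had a log2 fold change of the same sign in needles and 5 in stem, and none was called there. Some of these were very small, such as -0.0059 for PpCO2_106128 in needles and -0.0064 for PpCO2_92144 in stem. That of PpCO2_53134 was 0.28 in needles and 0.23 in stem. The same share over all transcripts called in roots was not computed, so the counts are a description only. The difference between organs was tested over all 36 libraries, where 0.739% of 186020 transcripts were called for nitrogen form, and 2 members were. That joint fit had its own scaling. The log2 fold changes per organ beside its adjusted p, here and for CO2, are from the separate organ fits. The nitrogen response of PpCO2_100171 was 0.04 in needles, -0.17 in stem and -0.48 in roots (log2 fold changes, adjusted p of the difference = 0.00682). That of PpCO2_109952 was 0.54 in needles, 0.19 in stem and 0.093 in roots (adjusted p = 0.0408), and by library totals it was not called (0.0753). With the seedling pool, read from the replicate number, as a replicate block, 1 member was called, and PpCO2_109952 was at 0.0761. Without replicate 1 of every group PpCO2_100171 was at 0.423, and without replicate 2 at 0.904. PpCO2_109952 was above 0.05 without replicate 1 (0.102), 2 (1.00) or 3 (0.132).

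For CO2, the members called depended on the scaling. In needles 3 members rose at 720 ppm, where 0.561% of all transcripts were called. With edgeR, 18 members (46.2%) had an unadjusted p under 0.05, against 10.4% of all transcripts. Members have far higher counts than most transcripts, so these shares are set side by side only. PpCO2_158233 had 308, 467 and 535 CPM as lowest, median and highest of 6 libraries at 720 ppm, against 156, 256 and 308 CPM in 6 libraries at 400 ppm. Its means were 442 ± 83.7 CPM at 720 ppm and 252 ± 52.3 CPM at 400 ppm (SD, n = 6 each), a log2 fold change of 0.93 ± 0.18 (SE), at an adjusted p of 0.0463 by edgeR. PpCO2_106707 had 388, 459 and 522 CPM at 720 ppm, against 302, 372 and 403 CPM at 400 ppm (0.43, SE 0.075, adjusted p = 0.0235). PpCO2_53134 had 988, 1180 and 1316 CPM at 720 ppm, against 883, 1006 and 1160 CPM at 400 ppm (0.32, SE 0.063, adjusted p = 0.0393). In all 3 the groups overlapped, in PpCO2_158233 by less than 1 CPM. Of the 186 uneven abundant identifiers, 31 were called, all of them higher.

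Library totals lowered the median of all transcripts in this comparison by 0.12 log2 units relative to TMM. By totals 2 members were called, PpCO2_158233 higher and PpCO2_92144 lower (log2 fold change -0.26, adjusted p = 0.0307), so 1 higher and 1 lower stood in place of 3 higher. PpCO2_92144 had 1152, 1206 and 1283 CPM at 720 ppm, against 1338, 1457 and 1526 CPM at 400 ppm, without overlap, and PpCO2_14705 had 344, 402 and 442 CPM at 720 ppm, against 443, 503 and 532 CPM at 400 ppm, also without overlap. On the TMM scale neither was called, with log2 fold changes of -0.14 (adjusted p = 0.251) and -0.21 (adjusted p = 0.259). These were the 2 members without overlap in needles for CO2, where 1.66% of the transcripts tested did not overlap.

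The 3 CO2 calls in needles lay close to the threshold, and with 1 library left out some were lost while the log2 fold changes stayed similar. PpCO2_158233 was lost without any 1 of 10 libraries (adjusted p 0.0589 to 0.169, log2 fold change 0.81 to 0.99) and was called without nitrate 400 ppm replicate 1 or nitrate 720 ppm replicate 3. PpCO2_53134 was lost without any 1 of 8 libraries (0.0516 to 0.113, log2 fold change 0.28 to 0.35) and was called without replicate 1 of any of the 4 groups. PpCO2_106707 was lost without ammonium 400 ppm replicate 3 (0.0604) or nitrate 720 ppm replicate 1 (0.0524) or 2 (0.0570), with log2 fold changes of 0.40 to 0.43. Without the many-even-count libraries, PpCO2_106707 was the call that remained, and PpCO2_158233 was at 0.221 (log2 fold change 0.87) and PpCO2_53134 at 0.0967 (0.37).

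**Figure D5:**
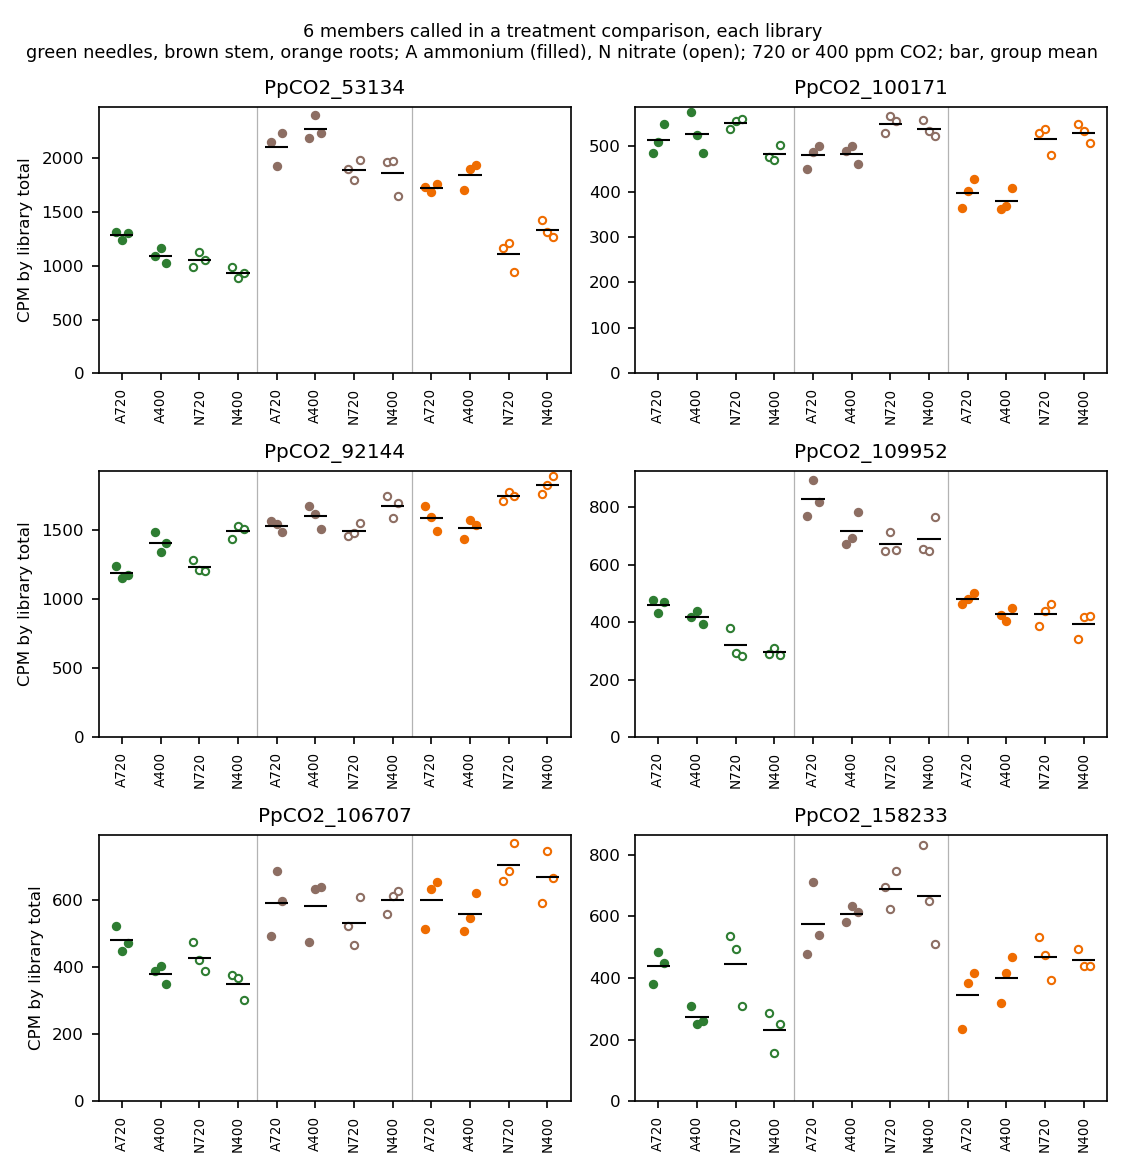
CPM by library total of 6 members called in a treatment comparison, in each library, with ammonium (A, filled) left of nitrate (N, open), 720 left of 400 ppm CO2, and a bar at each group mean; green is needles, brown stem and orange roots. In roots the ammonium libraries of PpCO2_53134 lie above the nitrate ones and those of PpCO2_100171 and PpCO2_92144 below them, and in needles the ammonium libraries of PpCO2_109952 lie above the nitrate ones.

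In stem and roots no member was called for CO2 by edgeR, DESeq2 or limma-voom, where edgeR called 0% of all transcripts in stem and 0.603% in roots. With edgeR, 5 members (12.8%) in stem had an unadjusted p under 0.05, against 5.46% of all transcripts, and 7 members (17.9%) in roots, against 9.76%. The smallest p in stem belonged to PpCO2_16863, with 478, 556 and 696 CPM at 720 ppm, against 369, 474 and 555 CPM at 400 ppm (log2 fold change 0.26, SE 0.085, adjusted p = 0.637). PpCO2_43965 had 503, 522 and 580 CPM at 720 ppm, against 424, 466 and 491 CPM at 400 ppm in stem, without overlap, as for 0.423% of the transcripts tested, and it was not called (adjusted p = 0.641). The smallest p in roots belonged to PpCO2_86541, with 547, 644 and 738 CPM at 720 ppm, against 695, 807 and 958 CPM at 400 ppm (-0.34, SE 0.11, adjusted p = 0.258). No member's groups were without overlap in roots, where 0.353% of the transcripts tested were.

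The CO2 response differed between organs in 1 member, where 0.0699% of all transcripts were called. PpCO2_53134 had a log2 fold change of 0.32 in needles, -0.061 in stem and -0.20 in roots (adjusted p of the difference = 0.0315), and by library totals it was not called (0.0993). With the pool as a replicate block 3 members were called, PpCO2_53134 (0.0411) and the near-identical PpCO2_86541 (0.0172) and PpCO2_86543 (0.0183). PpCO2_86541 had log2 fold changes of 0.32 in needles, 0.067 in stem and -0.34 in roots, and an adjusted p of 0.0603 without the block. Without replicate 1 of every group PpCO2_53134 was at 0.183, without replicate 2 at 1.00, and without replicate 3 the same 3 members were called.

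No member showed an interaction of nitrogen form and CO2 by edgeR in any organ, where 0% of transcripts in needles, 0% in stem and 0.462% in roots were called. With edgeR, 0 members in needles, 2 (5.13%) in stem and 2 (5.13%) in roots had an unadjusted p under 0.05, against 3.7% of all transcripts in needles, 3.08% in stem and 6.74% in roots, and DESeq2 and limma-voom called none. In roots the smallest p was that of PpCO2_115785 (log2 difference of responses -0.53, SE 0.17, adjusted p = 0.420), which was called without ammonium 720 ppm replicate 3 (0.0254). In needles it was that of PpCO2_100171 (-0.22, SE 0.12, adjusted p = 1.00) and in stem that of PpCO2_55838 (-0.40, SE 0.17, adjusted p = 1.00). In roots, CO2 under ammonium alone and under nitrate alone called no member, where 0.00641% and 0.703% of all transcripts were called. DESeq2 and limma-voom also called none there. Each of these had 4 members (10.3%) at an unadjusted p under 0.05, against 9.04% of all transcripts under ammonium and 6.25% under nitrate. The smallest p values were those of PpCO2_154459 under ammonium (-0.28, SE 0.089, adjusted p = 0.403) and PpCO2_41400 under nitrate (-0.25, SE 0.080, adjusted p = 0.314).

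PpCO2_20527 and PpCO2_33144 had large but unsettled nitrogen changes, none of them called. The log2 value of PpCO2_20527 was -0.77 ± 0.40 (SE, adjusted p = 1.00) in stem and 0.61 ± 0.42 (adjusted p = 0.397) in roots, and that of PpCO2_33144 was -0.79 ± 0.39 (adjusted p = 1.00) in stem and 0.66 ± 0.37 (adjusted p = 0.287) in roots. The steadiest members moved little: PpCO2_164229 had nitrogen log2 fold changes of 0.038 in needles, 0.0069 in stem and -0.052 in roots, and CO2 log2 fold changes of 0.044 in needles, 0.015 in stem and -0.032 in roots. A p above the threshold does not show that a member did not respond.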

How the data were processed

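Total RNA of 36 organ samples, each from a pool of 12 seedlings, was sequenced as paired 150 bp reads. The deposited table held raw counts per transcript identifier, as whole numbers with a different total in each column. The submitters' processing notes name bcl2fastq, which converts base calls to reads. Aligner, assembly and multi-mapping rules are not given in the sources used here, so near-identical identifiers may have split or shared reads. The protocol text describes another root experiment, so groups were taken from titles, characteristics and the series design. No sequences or gene names were used here.

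CPM were computed from column totals. Tests used R 4.3.3 with edgeR 4.0.16: per organ, 4 group means over 12 libraries (8 residual degrees of freedom), filterByExpr with a minimum count of 10, TMM scaling, robust quasi-likelihood tests, two-sided, and Benjamini-Hochberg adjustment over all transcripts tested. Differences between organs were tested over all 36 libraries. Alternatives were DESeq2 1.42.0, limma-voom 3.58.1, other scalings, no filter, a replicate block and leaving out libraries. The calculation was tested on simulated data for the nitrogen comparison in roots only, with the same spread set for every transcript. Depth is given with the results; the 3 libraries of a group are biological replicates per the labels.

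Members and lists were chosen with earlier results of these data known. Named were the 12 highest, the 4 most and least even, those nearest each limit, the steadiest and most variable 3, the 2 highest per organ, consecutive numbers, and up to 4 called in each direction per comparison or, where none was called, the member with the smallest p. Per the labels, a seedling pool was harvested per biological replicate and divided into organs; that a replicate number names the same pool in each organ is read from this and not stated, and same-number deviations between organs correlated at -0.19 to 0.55 with a median of 0.18. For different numbers the median between organs was -0.099. Same-number correlations within an organ also fell below 0.1 for some pairs. The main fits used no block, within an organ or between organs, and fits with a block are given as alternatives.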

Additional observations from a re-analysis of the deposited data

Results flagged for a closer look

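Some libraries or responses stood apart. In needles, PpCO2_109952 had 1 high library among the 6 with nitrate: nitrate 720 ppm replicate 1 stood at 381 CPM and the other 5 at 284 to 310 CPM. Chance marks about 1 in 20 such groups. For each member named for nitrogen form or CO2 over both levels of the other factor, both groups of 6 were checked. This library was the only mark among them.

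The nitrogen response of PpCO2_100171 differed between organs (edgeR adjusted p = 0.00682), and that of PpCO2_109952 passed the threshold (adjusted p = 0.0408) but not with the seedling pool as a replicate block (0.0761) or by library totals (0.0753). The CO2 response of PpCO2_53134 differed between organs (adjusted p = 0.0315, and 0.0411 with the block), but was not called by library totals (0.0993). Each of the 3 was lost without the many-even-count libraries. That fit has 7 fewer libraries and keeps 1 library in needles nitrate 400 ppm and 1 in stem ammonium 400 ppm. The sizes stayed similar, taken here from the joint fit over all organs and not from the separate organ fits. The needles response minus the roots response on the log2 scale was 0.54 without those libraries and 0.55 with them for PpCO2_100171. It was 0.51 and 0.48 for PpCO2_109952, and 0.61 and 0.58 for PpCO2_53134.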

How the results depend on the processing

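Counts of members called are given by comparison, with the reported count in brackets after its name. The percentage in brackets after another count is the share of all transcripts called in the same fit. For nitrogen form in needles (1), there were 3 without the low-count filter (0.361%), 3 with DESeq2 (1.29%), 2 with limma-voom (0.407%) and 0 without the many-even-count libraries (0.282%), and 1 to 2 with 1 replicate left out. For CO2 in needles (3), where 0.561% of all transcripts were called, there were 1 with DESeq2 size factors (0.377%), 6 without the filter (0.737%), 15 with DESeq2 (2.88%), 8 with limma-voom (0.881%) and 1 without the many-even-count libraries (0.472%), and 0 to 6 with 1 replicate left out. For nitrogen form in stem (0), there were 1 with DESeq2 size factors (0.309%), 1 with library totals (0.306%), 1 without the filter (0.277%), 2 with DESeq2 (0.969%), 2 with limma-voom (0.312%), and 0 to 1 with 1 replicate left out. For nitrogen form in roots (7), leaving out 1 replicate gave 5 to 8. At 400 ppm alone (3), DESeq2 called 5 (13.5%), and leaving out 1 replicate gave 1 to 5. At 720 ppm alone (2), DESeq2 called 6 (10.5%) and limma-voom 6 (5.96%), and leaving out 1 replicate gave 1 to 3. For the interaction in roots (0), leaving out 1 replicate gave 0 to 1. For a nitrogen response that differs between organs (2), DESeq2 called 5 (2.22%) and the fit without the many-even-count libraries 0 (0.868%), and leaving out 1 replicate number gave 0 to 1. For CO2 (1), library totals gave 0 (0.0177%), DESeq2 4 (0.940%) and the fit without the many-even-count libraries 0 (0.0354%), and leaving out 1 replicate number gave 0 to 3. The cause was not tested, except that fits with libraries left out use fewer samples.

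With the replicate number as a block, 6 members were called for CO2 in needles (0.892%) and 1 for nitrogen form in stem (0.26%). Of the 3 reported for CO2 in needles, PpCO2_158233 was not among the 6 (adjusted p = 0.0532). Between organs, where the block is the seedling pool as read from the replicate number, it called 1 member for nitrogen form (0.769%) and 3 for CO2 (0.152%). Within an organ, same-number libraries correlated in their deviations at -0.052 at the lowest and 0.15 in the median in needles, -0.46 and 0.12 in stem and -0.14 and 0.15 in roots. For different numbers the medians were lower, at -0.059 in needles, -0.031 in stem and -0.062 in roots, and the ranges overlapped. Between organs the medians were 0.18 for the same number and -0.099 for different numbers. Whether the numbers pair libraries within an organ was thus not settled.

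With the ratio limit at 1.5 there were 27 members, and with the level limit at 1000 CPM there were 2. Over the named members, 381 values under alternatives kept their direction and their side of the threshold, 66 kept the direction but lost the call, 9 gained a call, and 0 reversed. Among them, the values for differences between organs are p values, which have no direction. For those only the side of the threshold was compared, and they could not reverse. The 381 include values of members not called in the main fit, which could gain a call but not lose one. The 66 lost calls thus fall on the called results only. PpCO2_70874 and PpCO2_114159, which lie outside the naming rule, were not counted.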
